A study of Mus musculus with 6 samples.

Results

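Macrophages take up dead cells and debris in every tissue, and in the inner ear they live among the neurons, along the vessels and in the bone of the cochlea. A small set of genes marks them: surface receptors such as Csf1r, Adgre1, Cd163 and Mrc1, the lysosomal protein Cd68, the cytoskeletal protein Aif1 (Iba1), the Trem2 receptor with its signalling adaptor Tyrobp, and the lysozyme Lyz2. None of these genes is strictly private to macrophages. Tyrobp and Lyz2 are also used by neutrophils and monocytes, and several of them by osteoclasts, which come from the same lineage.

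These 9 macrophage identity genes were followed in RNA of the cochlear modiolus, the central pillar of bone around which the cochlea winds and in which the spiral ganglion neurons (SGNs) lie, by matching the Ensembl transcripts of the deposited count table to their symbols. A gene was kept if at least 1 of its transcripts had a row. This held for 6 of the 9 genes (Cd68, Aif1, Tyrobp, Cd163, Mrc1 and Lyz2), of 33643 symbols with a row in all, and for 13 of their 34 annotated transcripts, of 65535 in the table. Csf1r, Trem2 and Adgre1 had 6, 4 and 5 annotated transcripts, of which 0 were listed, and they are not analysed here. They lie at chr18:61100598-61132149, chr17:48346401-48354147 and chr17:57358691-57483527 of GRCm38, and on chromosomes 17 and 18 31.6% and 27.7% of the annotated transcripts were listed, against 46.0% overall. The lack of a row does not show that a transcript was not expressed, since the transcript Aif1-202 was listed with 0 counts in every library.

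The series compared wild-type C57BL/6 mice with degenerated SGNs and control mice given saline, with 3 libraries a group. Degeneration had been brought about in male mice of 8 weeks with 1 g/kg kanamycin sulfate and, 30 min later, 0.4 g/kg furosemide, a pair of drugs that destroys the hair cells and leaves the neurons without their targets. RNA was taken on day 30. Neither the labels nor the methods say whether a library came from 1 animal or from a pool, so the p-values measure the spread between these libraries only. The libraries held 12480876 to 15549319 counts. The labels name spiral ganglion neurons as the cell type, but the tissue is whole modiolus. Besides neuronal genes the libraries held summed levels of 4914 to 9819 CPM (counts per 1000000 counts of the library) for 9 Schwann cell genes, 3482 to 41545 CPM for 7 erythroid genes, 272 to 13813 CPM for 11 neutrophil genes and 245 to 855 CPM for 6 bone genes.

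The genes differ in how much of them the table can show. Mrc1 (chr2:14229392-14332057, ENSMUSG00000026712) and Lyz2 (chr10:117277331-117282321, minus strand, ENSMUSG00000069516) had every annotated transcript listed. Of the others only some were: Cd68 (chr11:69664213-69666153, minus strand, ENSMUSG00000018774), Tyrobp (chr7:30413760-30417585, ENSMUSG00000030579), Cd163 (chr6:124304656-124330527, ENSMUSG00000008845) and Aif1 (chr17:35170991-35176068, minus strand, ENSMUSG00000024397). Coordinates are from GENCODE M21 on GRCm38. The sequences that part a listed from an unlisted transcript are short in Cd68 and Cd163, and in Aif1 one exon serves 3 transcripts alike. They are shown because reads from shared sequence can be credited to either transcript. The first is coding sequence (chr11:69665476-69665502, minus strand) of the listed Cd68-202 that the unlisted Cd68-201 lacks, and the second is coding sequence (chr6:124328962-124329044, plus strand) of the unlisted Cd163-202 that the listed Cd163-201 lacks. The third is a coding exon (chr17:35171414-35171576, minus strand) that is the same in the listed Aif1-201 and Aif1-206 and the unlisted Aif1-203.
Cd68-202: gtaaagctaaagtggggcttaaagagg
Cd163-202: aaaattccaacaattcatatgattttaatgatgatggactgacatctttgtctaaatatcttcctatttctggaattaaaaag
Aif1 exon: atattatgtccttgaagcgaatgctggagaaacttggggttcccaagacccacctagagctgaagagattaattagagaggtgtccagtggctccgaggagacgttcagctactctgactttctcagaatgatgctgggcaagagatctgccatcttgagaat

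Of all stretches of 100 bases in Cd68-202, 86.4% also occur in Cd68-201, and the share was 96.7% for Cd163-201 in Cd163-202, 81.6% for Aif1-201 in Aif1-203 and 100% for Tyrobp-201 in the unlisted Tyrobp-202. For Cd68, Cd163, Aif1 and Tyrobp the listed counts are therefore a part of the gene whose size cannot be read from this table.

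For Lyz2 the question is its neighbour Lyz1, a lysozyme gene of almost the same sequence. Exon 2 of each gene (chr10:117280641-117280805 for Lyz2 and chr10:117291029-117291193 for Lyz1, both minus strand, all coding) shows the likeness, with capitals at the bases that differ.
Lyz2: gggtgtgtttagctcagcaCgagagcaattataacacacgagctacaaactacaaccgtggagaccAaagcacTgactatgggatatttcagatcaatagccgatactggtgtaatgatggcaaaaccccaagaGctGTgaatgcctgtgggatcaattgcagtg
Lyz1: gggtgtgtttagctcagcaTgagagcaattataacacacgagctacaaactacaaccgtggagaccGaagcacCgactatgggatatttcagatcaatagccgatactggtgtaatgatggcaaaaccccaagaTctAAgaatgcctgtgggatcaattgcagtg

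The exons differ at 6 of 165 bases (C20T, A67G, T74C, G135T, G138A and T139A, the base of Lyz2 first, counted from 1 at the 5′ end of the exon). Over the whole transcripts the genes are easier to tell apart, since 24 of the 1217 stretches of 100 bases in Lyz2-201 (1.97%) occur in Lyz1-201. Lyz1 itself was low, at 2.98, 2.83 and 10.7 CPM in control and 4.72, 4.09 and 4.34 CPM in degenerated libraries, and Lyz2 had 130 to 765 times as many counts as Lyz1 in a library. Reads exchanged between these genes could move Lyz1 far more than Lyz2.

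Of the 9 macrophage identity genes 5 were tested, and none of these met the criteria of a difference between degenerated and control modioli. Aif1, described below, was not among the 5. A gene was called when its absolute log2 fold change was above 0.2 and its p, unadjusted, under 0.01 by the quasi-likelihood test of edgeR. Of the 5 members that passed the filter on low counts, 0 were called higher and 0 lower, 0 had an unadjusted p under 0.05 and 0 had groups that did not overlap. Over all 14106 genes tested, 2.01% were called higher and 0.723% lower, 9.69% had an unadjusted p under 0.05, and 17.7% had groups that did not overlap (10.3% with all degenerated libraries above and 7.36% with all below). At such shares, 0 calls among 5 genes say little about the set. At a Benjamini-Hochberg adjusted p under 0.05, edgeR called 0 genes of any kind and DESeq2 385, of which 0 were members. With 3 libraries a group an exact permutation test cannot give a two-sided p below 0.1. In bulk tissue, a change in the number of macrophages and a change in the RNA per macrophage cannot be told apart.

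**Figure D1:**
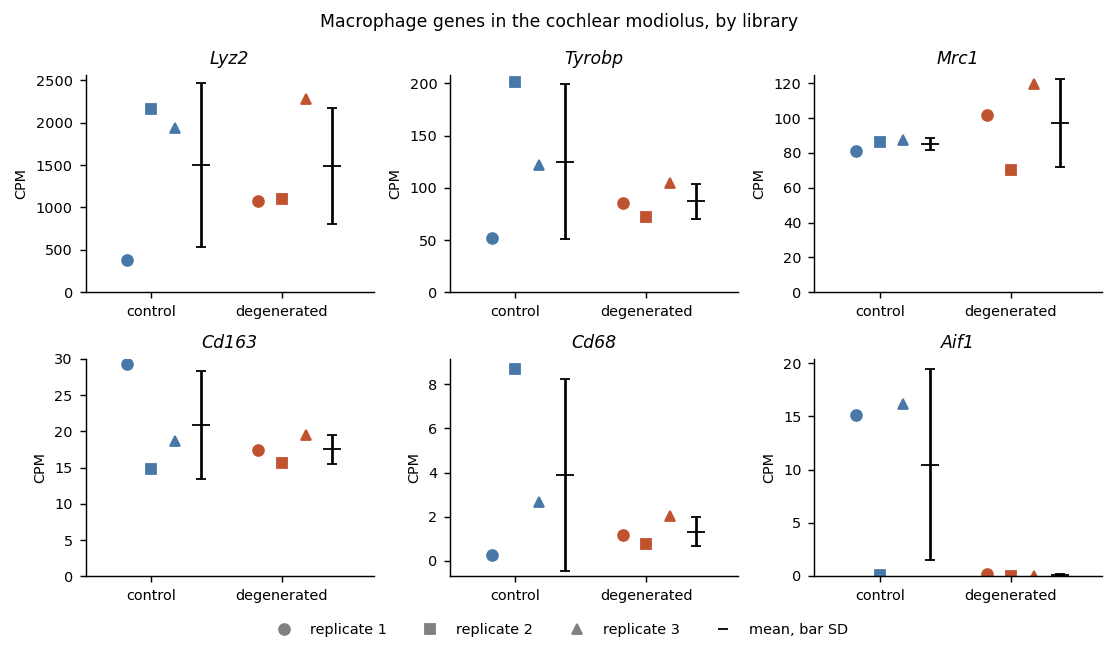
Level of each macrophage gene with a row in every library, in CPM on linear axes, with points for the 3 control and 3 degenerated libraries and bars for the mean with its SD. The groups overlap in every panel, and in Lyz2 and Tyrobp control replicate 1 is the lowest of all libraries.

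Per kilobase of transcript the order of the 6 genes was the same in both groups except at its lower end. Lyz2 led with mean levels of 1161 CPM per kb in control and 1125 in degenerated libraries, followed by Tyrobp with 227 and 154 and Mrc1 with 16.9 and 18.3. Below them Aif1 had 12.7 and 0.0735 CPM per kb, Cd163 5.93 and 4.50, and Cd68 5.20 and 1.93. Aif1 thus stood next to Mrc1 in control and last in degenerated libraries. Cd163 and Cd68 lay within the spread of each other in the control libraries. These levels are of the listed transcripts only.

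Cd163 and Mrc1 are scavenger receptors of resident macrophages: Cd163 clears haemoglobin with its carrier haptoglobin, and Mrc1 (CD206) binds mannose-bearing glycoproteins. Mrc1 had 81.2, 86.0 and 87.7 CPM in control replicates 1, 2 and 3 and 102, 69.9 and 120 CPM in degenerated replicates 1, 2 and 3. Control libraries lay close together (85.0 ± 3.37 CPM, SD, n = 3), and the degenerated libraries fell on both sides of them (97.2 ± 25.2 CPM). The log2 fold change of degenerated over control was 0.19 with a standard error (SE) of 0.21 (edgeR, adjusted p = 0.807). Its 95% interval ran from 0.803-fold to 1.63-fold, the narrowest among the 5 genes tested. Cd163 had 29.3, 14.8 and 18.6 CPM in control and 17.4, 15.6 and 19.5 CPM in degenerated libraries. All degenerated values lay inside the range of the control values, of which control replicate 1 was the highest. Its log2 fold change was -0.26 with an SE of 0.31 (edgeR, adjusted p = 0.824), with an interval of 0.499-fold to 1.41-fold.

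Tyrobp (DAP12) carries the signal of Trem2 and of other receptors without a tail of their own. It had 52.1, 201 and 122 CPM in control and 85.0, 71.8 and 105 CPM in degenerated libraries. The control libraries spread over a ratio of 3.86 and held both the lowest and the highest value, while the degenerated libraries spread over 1.46. The log2 fold change was -0.52 with an SE of 0.47 (edgeR, adjusted p = 0.774), from 125 ± 74.5 CPM in control to 87.2 ± 16.5 CPM (SD, n = 3). This value was -0.90 without control replicate 1 and -0.003 without control replicate 2, and it was called in neither case.

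Lyz2 encodes the lysozyme of macrophages, monocytes and granulocytes, which cuts bacterial cell walls. It had 386, 2164 and 1941 CPM in control and 1082, 1099 and 2283 CPM in degenerated libraries. The means were almost equal (1497 ± 969 and 1488 ± 688 CPM, SD, n = 3), but the control libraries differed among themselves by a ratio of 5.61. The log2 fold change was -0.01 with an SE of 0.66 (edgeR, adjusted p = 0.997). Its interval ran from 0.325-fold to 3.04-fold, so that these libraries leave room for a change of any size inside these bounds.

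Cd68, a glycoprotein of lysosomes and endosomes, was counted rarely. It had 4, 123 and 42 counts in control and 17, 11 and 26 counts in degenerated libraries, or 0.265, 8.70 and 2.68 CPM and 1.16, 0.775 and 2.05 CPM. The lowest and the highest value were again control replicates 1 and 2. The log2 fold change was -1.54 with an SE of 1.11 and an interval of 0.0525-fold to 2.25-fold (edgeR, adjusted p = 0.703).

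Aif1, which bundles actin in ruffling membranes, was the member with the most uneven counts. Control replicates 1, 2 and 3 had 228, 1 and 254 counts, and degenerated replicates 1, 2 and 3 had 2, 0 and 0. A count of 0 in the latter allows a level of up to 0.210 and 0.240 CPM, taken on total counts. Control replicates 1 and 3 had 15.1 and 16.2 CPM. The groups overlapped, because control replicate 2 with 0.0707 CPM lay below degenerated replicate 1 with 0.137 CPM. Added up, the control libraries held 483 counts and the degenerated libraries 2, a ratio of 223 per count sequenced with an interval of 61.3 to 1843 that covers counting error only and not the spread between libraries.

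Aif1 did not pass the filter on low counts, which asks for counts in as many libraries as a group holds, and so had no fitted value. Without that filter its log2 fold change was -7.55 with an SE of 2.06, which met the criteria of a call with an adjusted p of 0.531 (edgeR). With a filter on a mean count of at least 10 it was -7.54 and not called (unadjusted p = 0.0123). Without any 1 degenerated library it was -10.23 to -7.04 and not called, and without control replicate 1 or 3 it did not pass the filter. Without control replicate 2, the control library with 1 count, it was -8.12 and met the criteria. Wherever it was fitted with a library left out, it passed through control replicates 1 and 3, in which it was high. The same holds for the mean count of at least 10. These values, called or not, are therefore only a description. The call thus changed with the filter and with the libraries kept. Control replicate 2 also had the highest levels of Cd68 and Tyrobp, with 8.70 and 201 CPM.

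**Figure D2:**
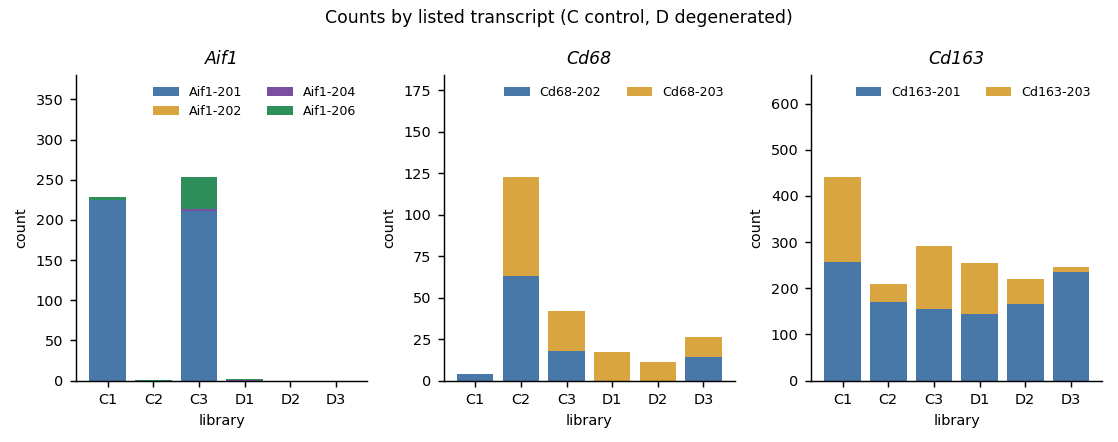
Counts of the listed transcripts of Aif1, Cd68 and Cd163 in each library, as bars stacked by transcript with linear axes from 0. Aif1 counts came mostly from Aif1-201 in control replicates 1 and 3, and the share of Cd163-203 was lowest in degenerated replicate 3.

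Transcript by transcript, 9 of the 13 listed transcripts passed the filter and 0 were called, against 1.14% called higher and 0.652% lower (1.79% in all) of the 26065 transcripts tested. An unadjusted p under 0.05 was reached by 0 of the 9, against 7.55% of all transcripts, and an adjusted p under 0.05 by 0, against 0.0153%. The counts of Aif1 were those of Aif1-201 (225, 0 and 211 in control and 0 in each degenerated library) with a smaller part from Aif1-206 (3, 1 and 40, then 1, 0 and 0). Aif1-204 had 0, 0 and 3 counts in control and 1, 0 and 0 in degenerated libraries, and Aif1-202 had 0 throughout. Aif1-201, Aif1-206 and the unlisted Aif1-203 share all 441 bases of their coding exons, the exon printed above among them. How many Aif1 reads were credited to Aif1-203 in each library was not analysed here.

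Cd163 was split between its coding transcript Cd163-201 and Cd163-203, which retains an intron. Cd163-201 had 257, 171 and 156 counts in control and 145, 165 and 235 in degenerated libraries (log2 fold change -0.01, SE 0.39). Cd163-203 had 185, 38 and 136 counts in control and 110, 56 and 12 in degenerated libraries (log2 fold change -0.97, SE 0.89). It made up 41.9%, 18.2% and 46.6% of the gene in control and 43.1%, 25.3% and 4.86% in degenerated libraries. The high Cd163 value of control replicate 1 thus rested on both transcripts.

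Cd68 changed its listed transcript from library to library. Cd68-202 had 4, 63 and 18 counts in control and 0, 0 and 14 in degenerated libraries, and the noncoding Cd68-203 had 0, 60 and 24, then 17, 11 and 12. Neither was called (log2 fold changes -2.45 with an SE of 1.74 and -1.03 with an SE of 1.34). Mrc1 and Tyrobp were counted through 1 transcript each. Mrc1-201 held 96.1% to 99.7% of the Mrc1 counts and Tyrobp-201 98.2% to 99.9% of the Tyrobp counts. Their log2 fold changes were 0.18 (SE 0.22) and -0.55 (SE 0.48).

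**Figure D3:**
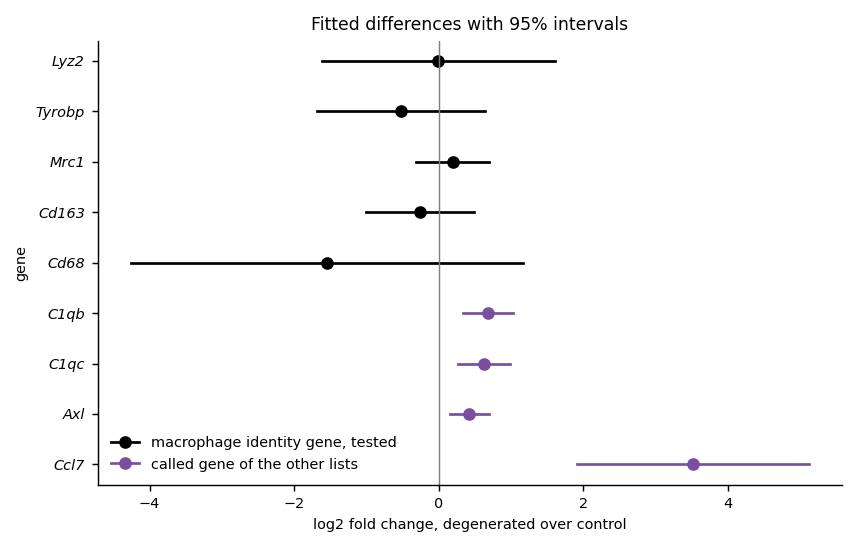
Fitted log2 fold change of degenerated over control for the 5 tested macrophage identity genes and the 4 called genes of the other macrophage lists, with bars for the 95% interval. All 5 intervals of the identity genes cross 0, and the interval of Cd68 is the widest.

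The summed markers of blood and marrow cells differed between the modiolus libraries, and some macrophage identity genes had a similar order over the libraries. Whether the content of these cells differed was not tested. The 11 neutrophil markers together had 272, 13813 and 6842 CPM in control and 692, 2010 and 4818 CPM in degenerated libraries. Of these markers 11 of 11 had lower fitted values in degenerated libraries (median log2 fold change -1.49), and 0 were called. Their sum was lowest in control replicate 1 and highest in control replicate 2, the same libraries that held the lowest and highest values of Tyrobp and Cd68. Lyz2 was likewise lowest in control replicate 1, but its highest value was in degenerated replicate 3. Erythroid genes summed to 6398, 41545 and 21506 CPM in control and 7241, 3482 and 16788 CPM in degenerated libraries.

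With the summed neutrophil level as a covariate, chosen after the data were seen, the log2 fold change of Lyz2 was 0.55 (edgeR, unadjusted p = 0.0471, not called), that of Tyrobp -0.14 and that of Cd68 -0.12. The sign of Lyz2 was therefore not settled. Mrc1 and Cd163 did not share this order of libraries: Mrc1 differed by a ratio of 1.08 among the control libraries, and Cd163 was highest where the neutrophil genes were lowest.

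**Figure D4:**
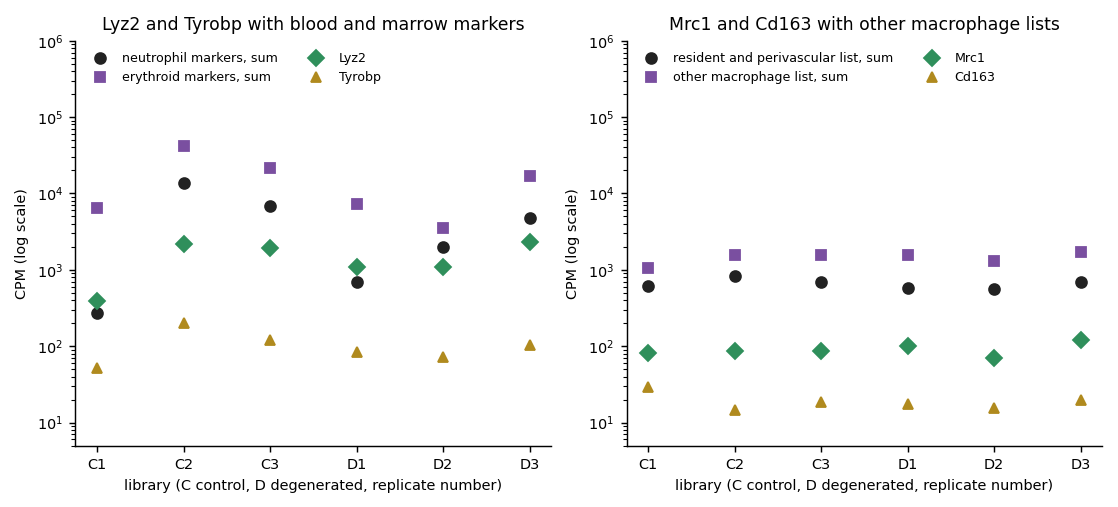
CPM on a log scale in each library (C control, D degenerated, with replicate numbers). The left panel shows Lyz2 and Tyrobp with the summed neutrophil and erythroid markers, of which all but the erythroid sum are lowest in control replicate 1, and the right panel shows Mrc1 and Cd163 with 2 summed macrophage lists, which vary less.

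Osteoclasts, the bone-resorbing relatives of macrophages, share several of these genes. Their 9 markers summed to 496, 697 and 413 CPM in control and 212, 130 and 365 CPM in degenerated libraries, groups that did not overlap. Of the 8 tested, 8 had lower fitted values (median -0.58) and 0 were called. Of 5 bone genes tested, 0 were called higher and 2 lower, against 2.01% and 0.723% of all genes. These were Bglap and Bglap2 (osteocalcin), with log2 fold changes of -1.54 and -1.55 (edgeR, adjusted p = 0.359 and 0.319). Each lost its call under 5 alternatives (the replicate number as a block and 4 of the 6 left-out libraries). Whether reads were shared between them was not analysed. Dendritic cell markers summed to 717 to 1004 CPM over all libraries, B cell markers to 31.2 to 501 CPM and T and NK cell markers to 16.5 to 57.2 CPM. Mast cell markers summed to 71.6 to 151 CPM, with Cpa3 and Tpsab1 at 0 counts in every library. The part of these cells in the levels of the macrophage genes was not tested.

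Over all genes tested, 0.723% were called lower and 2.01% higher. Of 8 hair cell markers tested, 2 were called lower and 0 higher, with 1 fitted higher and 7 lower (median -0.68). These were Ocm and Slc26a5, with log2 fold changes of -5.83 and -5.11 (edgeR, adjusted p = 0.0802 and 0.0902). Of 10 neuronal markers, 1 was called lower and 0 higher, with 3 fitted higher and 7 lower (median -0.59). An unadjusted p under 0.05 (edgeR) was reached by 5 of them, against 9.69% of all genes. Groups did not overlap for 6, in either direction, against 17.7% of all genes. The sum of these markers was 14020, 10821 and 12496 CPM in control and 7429, 9535 and 6376 CPM in degenerated libraries, without overlap. The called gene was Calb2 (-1.07, edgeR, adjusted p = 0.361), which lost its call under 9 of 15 alternatives, 5 of the 6 left-out libraries among them. Ocm and Calb2 are among the genes the study itself picked out on these samples, so that their calls are no independent evidence. Skeletal muscle genes were at 403 CPM in control replicate 3 and at 1.13 to 7.43 CPM in the other libraries.

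Other genes of macrophage biology were taken from 8 lists of 113 genes in all, of which 92 had a row and 76 were tested. Of these, 4 were called higher and 0 lower, or 5.26%, against 2.74% of all genes tested, and their median log2 fold change was -0.03, against -0.003 over all genes. The called genes were C1qb, C1qc and Axl of the general macrophage list and Ccl7 of the attractants. The lists were put together with earlier results of these data known, and Ccl7 is among the genes the study itself picked out on these samples, so that the count is no independent evidence of a direction.

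C1qb and C1qc encode chains of C1q, the starter of the classical complement cascade and a product mainly of macrophages. C1qb had 203, 171 and 175 CPM in control and 324, 247 and 311 CPM in degenerated libraries, and C1qc had 172, 151 and 173 CPM and 287, 209 and 269 CPM. Every degenerated library lay above every control library for both genes. The rise was 1.61-fold for C1qb (log2 fold change 0.69, SE 0.14, unadjusted p = 0.00279, adjusted p = 0.295 in edgeR) and 1.55-fold for C1qc (0.63, SE 0.15, unadjusted p = 0.00539, adjusted p = 0.331). The third chain, C1qa, had no listed transcript. Without any 1 library, C1qb was called in 2 of 6 fits and C1qc in 1 of 6, with log2 fold changes of 0.60 to 0.79 and 0.52 to 0.74.

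Axl, a receptor tyrosine kinase with which macrophages bind and engulf dying cells, had 192, 199 and 177 CPM in control and 268, 227 and 267 CPM in degenerated libraries. It was 1.34-fold higher (log2 fold change 0.42, SE 0.11, unadjusted p = 0.00865, adjusted p = 0.360 in edgeR), and it lost its call under 11 of 14 alternatives. It kept it under DESeq2, with a mean count of at least 10 and without degenerated replicate 2. Its bridging ligand Gas6 had 359, 444 and 412 CPM in control and 314, 330 and 331 CPM in degenerated libraries, without overlap. Gas6 did not meet the criteria (log2 fold change -0.32). Mertk, a relative of Axl with the same ligand, had a log2 fold change of 0.08 with overlapping groups. Gas6 and Mertk were chosen after their values were seen.

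Ccl7 (MCP-3), which draws monocytes through Ccr2, had 2.12, 0.707 and 2.87 CPM in control and 10.8, 28.0 and 26.8 CPM in degenerated libraries. The lowest degenerated value was several times the highest control value. It rose 11.4-fold (log2 fold change 3.51, SE 0.66, unadjusted p = 0.00169, adjusted p = 0.259 in edgeR), with an interval of 3.76-fold to 34.7-fold. It was called under every setting tried, with log2 fold changes of 3.12 to 3.92. Among the 9 genes of ligands and attractants, 6 had a row and 5 were tested, with 1 called higher and 0 lower and a median of 0.21. Csf1 and Il34, the ligands of Csf1r, had log2 fold changes of -0.55 and 0.21. Cx3cl1 (fractalkine), a membrane-bound attractant, ranged from 7.98 to 109 CPM in control and from 30.2 to 178 CPM in degenerated libraries (log2 fold change 1.40), and Cxcl12 had a value of 0.10. Ccl12 did not pass the filter, and Csf2, Ccl2 and Ccl8 had no listed transcript.

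**Figure D5:**
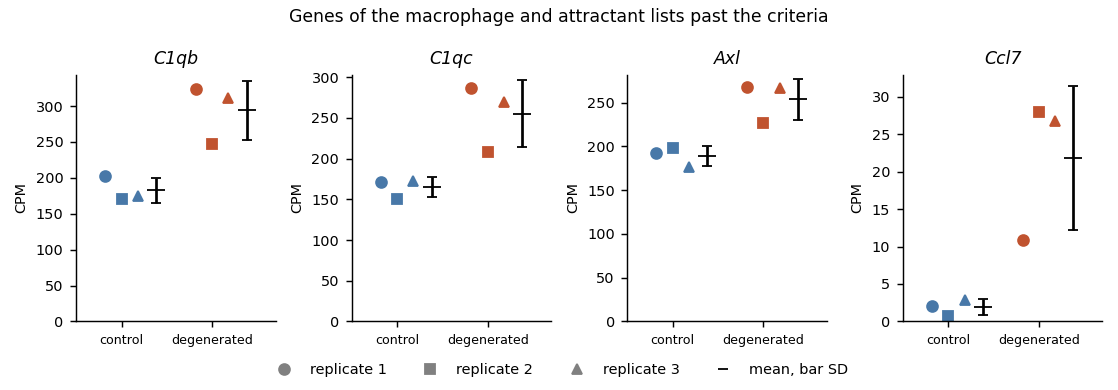
Level in CPM, on linear axes from 0, of the 4 genes of the macrophage and attractant lists that met the criteria, with a point for each of the 3 control and 3 degenerated libraries and bars for the mean with its SD. All degenerated libraries lie above all control libraries in each panel.

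In the general macrophage list, 20 of 33 genes were tested, and 3 were called higher and 0 lower, against 2.01% and 0.723% of all genes. The median was -0.06, with 9 genes fitted higher and 11 lower. Groups did not overlap for 5 of the 20 genes tested, against 17.7% of all genes. In all 5 the degenerated libraries lay above, which held for 10.3% of all genes. These were the called genes and, chosen after their values were seen, Fcgr1 and Ms4a6d. Fcgr1, the high-affinity receptor for IgG, had 17.1, 14.8 and 19.97 CPM in control and 26.5, 25.0 and 31.8 CPM in degenerated libraries (log2 fold change 0.68, called only with DESeq2). Ms4a6d had 15.8, 14.4 and 26.9 CPM, then 31.1, 29.9 and 37.3 CPM (0.79, called only without control replicate 3). The summed list had 1049, 1583 and 1544 CPM in control and 1582, 1314 and 1720 CPM in degenerated libraries, which overlap. In the same list the leukocyte phosphatase Ptprc (CD45) had 37.7, 93.3 and 131 CPM, then 51.6, 65.4 and 64.2 CPM, and the integrin Itgam (CD11b) 32.2, 153 and 76.0 CPM, then 66.7, 23.9 and 73.6 CPM. Both were, like Tyrobp, not called.

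The list of resident and perivascular macrophage genes, to which Cd163 and Mrc1 belong by function, had 12 of 15 genes tested and 0 called, with 4 fitted higher and 8 lower (median -0.33). Its sum was 611, 818 and 695 CPM in control and 580, 553 and 685 CPM in degenerated libraries. The microglia-like genes had 6 of 11 tested and 0 called (median 0.05), with sums of 342 to 452 CPM in control and 406 to 553 CPM in degenerated libraries. Fcrls had no count in 5 of the 6 libraries and 0.0789 CPM in degenerated replicate 3.

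The partners of Tyrobp and the Syk pathway beneath it had 9 of 12 genes tested and 0 called, with 2 fitted higher and 7 lower (median -0.68). The median was 0.32 without control replicate 2, -1.23 without control replicate 1 and 0.27 with the neutrophil covariate. Syk had 16.4, 247 and 96.1 CPM in control and 30.8, 42.3 and 152 CPM in degenerated libraries. The sum of the list was 53.3, 398 and 250 CPM, then 90.4, 87.5 and 263 CPM, again lowest in control replicate 1 and highest in control replicate 2. Monocyte genes had 5 of 8 tested and 0 called, with 0 fitted higher and 5 lower (median -0.81). That median ran from -1.86 without control replicate 1 to 0.049 without control replicate 3, and it was -0.053 with the neutrophil covariate. Among them Chil3 ranged most, with 6.15, 1036 and 535 CPM in control and 52.3, 176 and 427 CPM in degenerated libraries (log2 fold change -1.27). Ccr2, the receptor of Ccl7, had a log2 fold change of -0.81, Plac8 one of -1.49, Vcan one of -0.06 and Ms4a4c one of -0.03. F10 did not pass the filter, and Ly6c2 had no listed transcript. The summed monocyte list went from 41.0 to 1115 CPM within the control group.

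The genes of lipid handling and phagocytosis were all tested where they had a row, 14 of 15, and 0 were called. Of these, 11 were fitted higher and 3 lower (median 0.24). Gpnmb, a glycoprotein of lipid-laden macrophages, had 0.397, 0.778 and 1.40 CPM in control and 1.78, 3.10 and 16.3 CPM in degenerated libraries, without overlap (log2 fold change 3.02, not called, but called with DESeq2 and with the replicate number as a block, among others). The protease Ctsb had 1952, 1718 and 1951 CPM, then 2327, 2209 and 2405 CPM, also without overlap (0.30, not called). Both were chosen after their values were seen. Of the transcription factors 5 of 12 were tested and 0 called (median 0.11). Spi1 (PU.1), on which myeloid cells depend, had 22.4, 122 and 68.8 CPM in control and 30.03, 37.0 and 69.1 CPM in degenerated libraries, with control replicates 1 and 2 again lowest and highest.

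The genes whose order over the 6 libraries was nearest to the mean of the 5 tested members were Pxdc1, Pf4, Gm6430, Sema4b and Cep152, among 9888 genes with a mean of at least 5 CPM. The measure was the root mean square distance of standardised log2(CPM + 1) values, which was 0.438, 0.441, 0.442, 0.444 and 0.444 for these genes. Pf4, a chemokine stored in platelets that resident macrophages also make, had 13.6, 122 and 56.2 CPM in control and 25.7, 9.93 and 98.3 CPM in degenerated libraries. Among the members, Tyrobp lay at 0.598, Cd68 at 0.621, Lyz2 at 0.622 and Mrc1 at 0.742. These distances cannot be set against those of the 5 nearest genes, which were picked for being the smallest. Cd163 lay farthest of the members, at 1.31. It was highest in control replicate 1, where Tyrobp, Cd68 and Lyz2 were lowest.

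The promoters were searched for GAGGAAGT, a core to which PU.1 can bind, on both strands from 250 bases before to 50 after the start of the gene (RefSeq, GRCm38.p6). It occurred in 0 of the 6 members with a promoter entry (Mrc1, Cd163, Lyz2, Cd68, Aif1 and Trem2) and in 3.20% of 32851 promoters. With a motif this rare, 0 of 6 says little about the members. Trem2 was searched although it had no row in the counts. Among the called genes 3 had an entry, and C1qc held the motif.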

How the data were processed

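Total RNA of the cochlear modiolus was sequenced in 6 libraries, 3 a group, grouped by their labels. The authors aligned reads with Hisat2 and ran StringTie, and deposited 1 table of raw counts per Ensembl transcript, not normalized. The submitters' processing notes name Bowtie 0.12.2, mm8 and mm10. For the use of strand and the annotation in counting, nothing is given in the sources used here. The tests were planned for counts per gene, but the table held counts per transcript, so counts were summed over the listed transcripts of a symbol with GENCODE M21 (GRCm38). Of 65535 transcripts, 263 with 0.125% of the counts did not match and were left out.

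Genes and transcripts were each tested in R 4.3.3 with edgeR 4.0.16 (filterByExpr, TMM factors of 0.983 to 1.02 for genes, robust quasi-likelihood F test) over all 6 libraries without covariates, and p-values were Benjamini-Hochberg adjusted over all features tested. CPM use the TMM factors and the total counts of the features tested. SEs are the log2 fold change over the square root of F. The common biological coefficient of variation was 0.488 for genes. The gene fit was first tested on simulated counts with 200 changed genes. Their spread was set beforehand and not estimated from these libraries. For a count of 0 the upper limit was set at 3 counts. This limit and the CPM of 1 count were taken on total counts of the library, without TMM factors.

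The members and lists were chosen with earlier results of these data known. Genes named are the members, called genes of the lists, tested genes of lists of up to 9 genes, the 5 nearest profiles, markers called or at 0, and Lyz1. Syk, Spi1, Ptprc, Itgam, Fcrls and Ccr2 beside their lists, and those marked in the text, were chosen after their values were seen. Some list genes are not reported here. Lists were described by counts and medians, without a set test. Alternatives were DESeq2 1.42.0, RLE normalization, no filter, a mean count of at least 10, the replicate number as a block, each library left out, only protein-coding transcripts, and genes with every transcript listed. A neutrophil covariate and a term parting 3 libraries with low blood markers (degenerated replicates 1 and 2, control replicate 1) from the others were added after seeing the data.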

Additional observations from a re-analysis of the deposited data

How the results depend on the processing

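Of the members, 0 genes were called in either direction under every alternative except that Aif1 was called lower without the filter on low counts (1 gene) and when a library was left out, where the count ran from 0 to 1. Where Aif1 was fitted with a library left out, it passed the filter only through control replicates 1 and 3, in which it was high. For member transcripts called lower the range over left-out libraries was also 0 to 1, through Aif1-201 without control replicate 2, where this transcript passed the filter only through the libraries in which it was high. The 4 list genes called higher became 1 to 4 with a library left out and 2 among genes with every transcript listed. In that last setting C1qc and Axl were not fitted, since only some of their transcripts were listed. List genes called lower ran from 0 to 3, the 3 being F10, Gas6 and Ptprc without control replicate 1. Under DESeq2, Fcgr1 (0.67) and Gpnmb (3.03) also met the criteria, Gpnmb also with the replicate block (2.58) and the parting term (3.32), and Ms4a6d without control replicate 3 (1.10). In DESeq2 C1qb, C1qc and Ccl7 had an adjusted p of 0.0170, 0.0455 and 7.48e-06.

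Same-numbered libraries did not deviate together (Pearson r 0.158, -0.0909 and 0.0664 across genes), and not every library was nearest to its own number, so the numbers were not taken to pair the samples. With the replicate block 160 genes were called higher and 58 lower, against 284 and 102 without it, and with the block Lyz2 had a log2 fold change of 0.25 and Vcan of 0.023.

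Signs that turned were all of values that were not called. Cd163 was 0.020 over protein-coding transcripts. With the neutrophil covariate Lyz2 was 0.55, Chil3 0.89, Ms4a4c 0.18 and Cd68-203 1.09. With the parting term Lyz2 was 0.83, Chil3 1.58, Ms4a4c 0.38, Cd163-201 0.0011, Cd68-203 0.78 and Tyrobp-203 0.071. With a library left out, log2 fold changes ran from -0.45 to 0.059 for Cd163, -0.47 to 0.35 for Lyz2, -0.29 to 1.45 for Il34, -0.071 to 0.38 for Cxcl12, -1.94 to 0.18 for Plac8, -0.86 to 0.28 for Ms4a4c, -0.39 to 0.46 for Vcan, -0.65 to 0.57 for Lyz1, -0.0020 to 0.37 for Mrc1-201, -0.33 to 0.24 for Cd163-201 and -1.60 to 0.28 for Cd68-203. Of the list medians, that of the general macrophage list ran from -0.35 to 0.35 over all alternatives and that of the attractants from -0.071 to 3.52. Both upper ends came from genes with every transcript listed, where fewer genes were fitted. There Ccl7 was the only attractant fitted, so that 3.52 is its own value. Otherwise the attractants reached 1.45, without control replicate 2. The median of the Tyrobp and Syk list ran from -1.23 to 0.48, that of the monocyte genes from -1.86 to 0.049 and that of the transcription factors from -0.042 to 0.21. The causes were not tested. Tyrobp ran from -0.90 to -0.003 and Cd68 from -2.11 to -0.15. At these depths 1 count is 0.0643 to 0.0801 CPM, taken on total counts.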
